A study of Mus musculus with 4 samples.

Results

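The genes described here are members of 8 solute carrier families that move phosphate, sulfate, dicarboxylates, sodium, potassium, chloride, bicarbonate, protons or calcium across the membranes of kidney cells. They were chosen by name: a probe set, the group of array probes that reports 1 transcript, was a member if its only gene symbol began with Slc4a, Slc8a, Slc9a, Slc12a, Slc13a, Slc20a, Slc26a or Slc34a followed by a digit. This gave 106 probe sets for 50 genes, of 18193 genes on the array. Of the 50 symbols, 3 name no transporter: Slc9a3r1 and Slc9a3r2 encode scaffold proteins that hold transporters in the membrane, and Slc4a1ap encodes an adaptor protein.

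Kidney RNA was measured in wild-type (WT) male C57Bl/6 mice and in male C57Bl/6 mice labelled Tet2KO, for loss of the DNA-demethylating enzyme Tet2, either after a sham operation or after 60 min without renal blood flow and 24 h of reperfusion (IR). Each of the 4 groups was 1 Affymetrix array of RNA pooled from 3 mice, so there is no spread between mice, no test and no p-value, and having so few arrays bounds how precise any value can be. The labels do not say how Tet2 was removed or in which cells, and give no age. For Tet2, 2 probe sets read log2 9.96 and 9.84 in the wild-type sham array and 9.87 and 10.25 in the sham array labelled Tet2KO. Between the IR arrays they were 9.16 and 9.30 against 8.74 and 8.60. Whether these probes lie in the deleted part was not known here, so the group is called knockout-labelled.

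The tubule of the kidney reclaims most of the salt that the glomerulus filters, and each segment does so with its own transporters. In the proximal tubule, brush border carriers driven by sodium take up phosphate, sulfate and dicarboxylates such as citrate, while sodium-proton exchange and basolateral bicarbonate exit reclaim bicarbonate. The thick ascending limb takes up sodium, potassium and chloride together, the distal convoluted tubule takes up sodium with chloride and returns calcium to the blood, and intercalated cells of the collecting duct exchange chloride for bicarbonate. Ischemia injures mainly the proximal tubule, whose cells lose brush border and differentiated functions before they recover.

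Values are log2 signals, on which a difference of 1 is 2-fold. Signals under a floor of 5.72, the 40th percentile of all signals, were set to the floor for ratios, and a gene was measured in a comparison if 1 or more of its arrays reached the floor. The threshold for calling a gene higher or lower was 2-fold. Technical error was gauged by how far probe sets for 1 gene disagreed. This gauge leaves out error shared by a whole array and spread between mice, and takes in differences between transcripts of a gene. Over all genes the SD of the log2 ratios of such probe sets, called the technical SD, was 0.24 for IR against sham in wild type. In the knockout-labelled pair it was 0.39. It was 0.19 between the sham arrays and 0.32 between the IR arrays. Among member genes alone the SD was 0.28, 0.46, 0.19 and 0.45 in that order. Each gene was read from its brightest probe set other than those of the _x_at type, which can bind other transcripts, and levels of different genes are not compared with each other, because probes differ in brightness. Where 4 values follow each other, they stand for wild type after sham, wild type after IR, the knockout-labelled group after sham and the knockout-labelled group after IR. Where 2 folds or ratios of IR to sham follow each other, wild type comes first.

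In all, 40 of the 50 member genes reached the floor in 1 or more arrays. The 10 that did not were Slc4a5, Slc4a10, Slc8a3, Slc9a4, Slc9a5, Slc9a9, Slc12a8, Slc26a3, Slc26a5 and Slc26a10. All 40 others were measured in every comparison. Signals of the tubule segments were present in all 4 arrays, with Umod of the thick ascending limb between 14.02 and 14.52, Lrp2 of the proximal tubule between 11.20 and 13.34 and Aqp2 of the collecting duct between 10.95 and 11.71.

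In wild type, 4 of the 40 measured members were higher after IR and 2 lower, or 10% and 5%, against a background of 2.06% higher and 2.18% lower among 13531 measured genes. In the knockout-labelled pair 3 were higher and 9 lower, or 7.5% and 22.5%, against a background of 6.06% and 6.89%. The share higher was thus near the background in the knockout-labelled pair, and the share lower was above it. The median log2 ratio of the members was 0.03 in wild type and -0.29 in the knockout-labelled pair, beside 0.02 and -0.02 over all measured genes. The sign of the wild-type median was not stable: it was -0.11 with the other genotype's sham array as control. In whole-kidney RNA fewer cells of a type and less RNA per cell cannot be told apart.

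**Figure D1:**
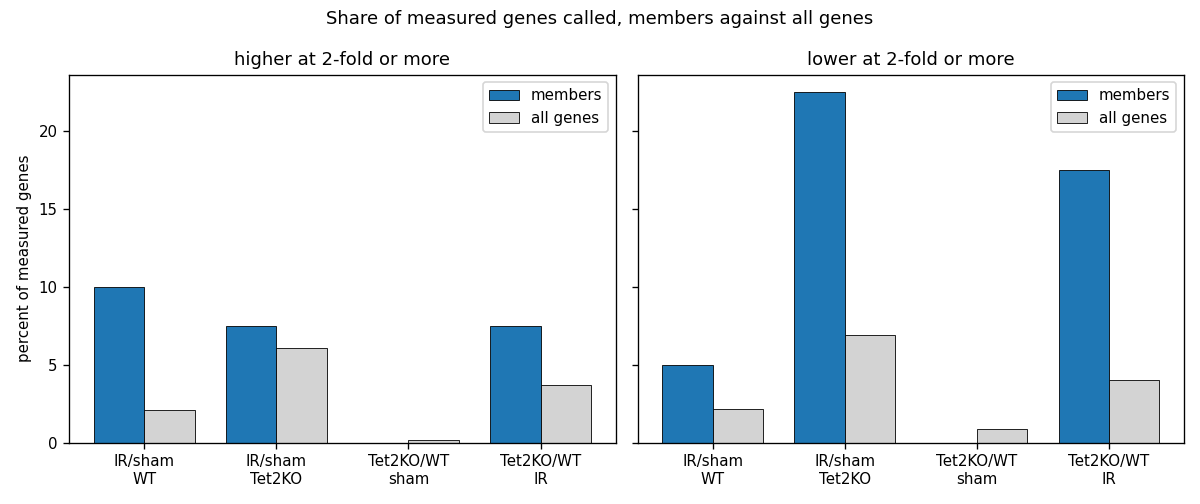
Bars give the percent of measured genes higher (left) or lower (right) at 2-fold or more in each pairwise comparison, for the 40 measured members and for all measured genes; each bar rests on 1 array per group. The tallest member bar is the 22.5% lower after IR in the knockout-labelled pair, and no member reached 2-fold between the sham arrays.

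Phosphate carriers went in opposite directions within each genotype. Slc34a1 and Slc34a3, the sodium-phosphate carriers NaPi-IIa and NaPi-IIc of the proximal tubule brush border, were lower after IR, while Slc34a2, the carrier NaPi-IIb best known from intestine and lung, and Slc20a1, the widely expressed carrier PiT1, were higher. To show the regulatory sequence next to these opposite values, the 250 bases before each RefSeq start site are printed in mouse build GRCm38.p6, 5′ to 3′ on the strand of the gene. RefSeq lists 2 start sites for Slc20a1. Capitals mark matches, on either strand, to TGANTCA (bound by AP-1), GTTAAT (part of the HNF1 site), AGGTCA (a nuclear receptor half-site), TATAAA and CACGTG (an E-box).

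Slc20a1, upstream start (chr2:129198523-129198772, plus strand): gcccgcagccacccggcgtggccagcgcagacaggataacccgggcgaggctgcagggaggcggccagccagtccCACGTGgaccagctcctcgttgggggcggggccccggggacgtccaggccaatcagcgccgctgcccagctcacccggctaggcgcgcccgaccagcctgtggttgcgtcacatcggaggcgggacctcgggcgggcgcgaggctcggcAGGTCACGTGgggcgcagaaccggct
Slc20a1, downstream start (chr2:129206846-129207095, plus strand): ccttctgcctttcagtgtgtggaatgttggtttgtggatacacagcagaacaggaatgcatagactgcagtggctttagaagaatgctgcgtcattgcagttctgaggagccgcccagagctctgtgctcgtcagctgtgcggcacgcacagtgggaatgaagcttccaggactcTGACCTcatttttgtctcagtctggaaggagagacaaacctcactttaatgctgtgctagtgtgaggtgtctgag
Slc34a2 (chr5:53049103-53049352, plus strand): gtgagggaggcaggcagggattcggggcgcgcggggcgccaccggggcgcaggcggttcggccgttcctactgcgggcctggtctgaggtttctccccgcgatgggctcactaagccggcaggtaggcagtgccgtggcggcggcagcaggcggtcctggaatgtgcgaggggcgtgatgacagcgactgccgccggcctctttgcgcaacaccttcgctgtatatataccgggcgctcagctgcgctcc
Slc34a1 (chr13:55399398-55399647, plus strand): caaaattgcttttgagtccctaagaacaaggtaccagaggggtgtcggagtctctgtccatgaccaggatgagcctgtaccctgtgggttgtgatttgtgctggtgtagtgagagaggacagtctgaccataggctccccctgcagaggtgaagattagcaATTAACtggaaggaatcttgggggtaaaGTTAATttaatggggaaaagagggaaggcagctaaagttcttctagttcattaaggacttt
Slc34a3 (chr2:25234235-25234484, minus strand): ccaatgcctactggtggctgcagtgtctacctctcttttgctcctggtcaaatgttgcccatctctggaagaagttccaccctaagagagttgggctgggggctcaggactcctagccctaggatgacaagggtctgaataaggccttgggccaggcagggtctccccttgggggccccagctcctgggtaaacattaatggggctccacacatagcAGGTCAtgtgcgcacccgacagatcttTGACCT

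The Slc34a1 window held 2 matches to GTTAAT, at 89 and 61 bases before the start, and the Slc34a3 window 2 matches to AGGTCA, at 33 and 6 bases before the start. The upstream Slc20a1 window held CACGTG at 175 and 22 bases before the start, the latter overlapping AGGTCA, and its downstream window 1 match to AGGTCA. None of the 5 motifs was found in the Slc34a2 window. Of all 32851 windows of this length, 6.43% held GTTAAT, 14.0% AGGTCA, 6.02% CACGTG, 6.75% TGANTCA and 12.4% TATAAA. Among the 50 windows of the 39 member genes with a listed promoter, the shares were 6%, 14%, 14%, 10% and 16%. These matches describe the letters of the windows and show no binding. GC content was 75.2% in the upstream and 50.8% in the downstream Slc20a1 window, 69.6% for Slc34a2, 46.4% for Slc34a1 and 56.4% for Slc34a3, beside a median of 52.4% over all windows.

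Slc34a3 had log2 signals of 9.67, 8.07, 9.35 and 7.41. Both IR arrays lay under both sham arrays, 3.05-fold lower in wild type and 3.85-fold lower in the knockout-labelled pair. It was the only member lower at 2-fold in both genotypes. Slc34a1, the main phosphate carrier of the proximal tubule, had 13.39, 12.53, 13.51 and 12.30 in the same order. It was 1.81-fold lower in wild type, under the 2-fold call, and 2.32-fold lower in the knockout-labelled pair.

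Slc34a2 had log2 signals of 7.78, 10.14, 8.20 and 10.02, so that both IR arrays were above both sham arrays, 5.16-fold in wild type and 3.53-fold in the knockout-labelled pair. Slc20a1 had 9.47, 11.41, 9.44 and 11.53, with nearly equal sham arrays, and was 3.83-fold and 4.26-fold higher. Its dimmer probe set had 5.02, 5.76, 4.78 and 7.21, barely over the floor in wild-type IR and clearly over it in knockout-labelled IR. With the median over probe sets, or with plain _at probe sets only, the wild-type log2 ratio of Slc20a1 was 0.04, and the call was lost. Slc20a2, which encodes the related carrier PiT2, had 8.94, 9.63, 9.12 and 9.97. Its differences of 1.62-fold and 1.81-fold stayed under 2-fold, and its other probe set had log2 ratios of only 0.09 and 0.13. Slc34a2 and Slc20a1 were the only members higher at 2-fold in both genotypes. They were 50.0% of the 4 members higher in wild type and 66.7% of the 3 higher in the knockout-labelled pair. The same overlap over all measured genes was not counted, so these shares have no background beside them.

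Genes that control phosphate and vitamin D were read beside these carriers. Kl, the co-receptor through which FGF23 lowers brush border phosphate uptake, had 12.45, 11.69, 12.65 and 10.04. Cyp24a1, which inactivates vitamin D, had 8.03, 11.02, 8.55 and 9.52 and was past 2-fold higher in wild type and 1.96-fold higher in the knockout-labelled pair. Cyp27b1, which makes active vitamin D, was at least 1.81-fold lower in wild type and 30.1-fold higher in the knockout-labelled pair. Pdzk1, a scaffold of brush border carriers, had 13.51, 13.02, 13.65 and 11.91 and was 3.33-fold lower in the knockout-labelled pair. The parathyroid hormone receptor Pth1r, at 11.61, 11.98, 12.06 and 11.44, stayed under 2-fold in both pairs.

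**Figure D2:**
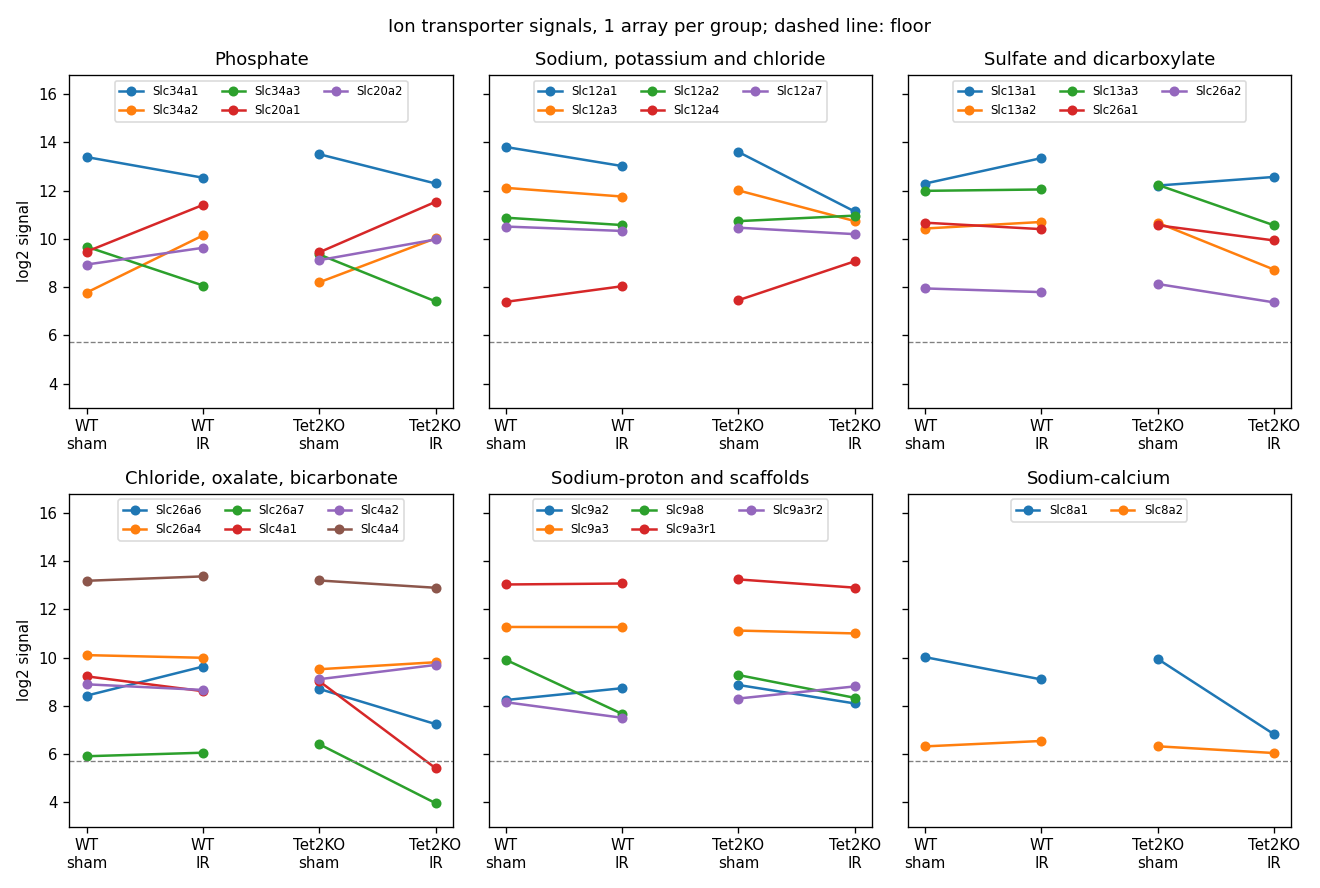
Log2 signal (vertical axis) of named members in the 4 arrays (horizontal axis), 1 point per array, with a line joining sham and IR of a genotype; the dashed line is the floor of 5.72. Slc34a2 and Slc20a1 slope up in both genotypes, Slc34a3 slopes down in both, and Slc4a1 and Slc26a7 drop under the floor in knockout-labelled IR.

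The sodium-coupled chloride carriers of the loop and distal tubule were lower mainly in the knockout-labelled IR array. Slc12a1, the furosemide-sensitive carrier NKCC2 of the thick ascending limb, had 13.81, 13.02, 13.60 and 11.13. It was 1.73-fold lower after IR in wild type and 5.52-fold lower in the knockout-labelled pair. A dimmer probe set of Slc12a1 had log2 ratios of -0.38 and -0.41, both bounds because its IR signals were under the floor. Slc12a3, the thiazide-sensitive carrier NCC of the distal convoluted tubule, had 12.11, 11.75, 12.01 and 10.74, which is 1.28-fold and 2.41-fold lower.

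Carriers of the same family that serve cell volume and chloride balance did not follow them. Slc12a4, the widely expressed potassium-chloride carrier KCC1, had 7.39, 8.04, 7.46 and 9.07, with both IR arrays above both sham arrays. It was 1.57-fold higher in wild type and 3.06-fold higher in the knockout-labelled pair, where it was the only family member called higher. Slc12a2, the basolateral carrier NKCC1, had 10.88, 10.57, 10.73 and 10.96, and Slc12a7, the potassium-chloride carrier KCC4, had 10.51, 10.33, 10.46 and 10.20. Neither reached 2-fold in any comparison, and the 3 probe sets of Slc12a2 differed in sign in the knockout-labelled pair, from -0.09 to 0.81. Slc12a5 and Slc12a9 had log2 ratios between -0.30 and -0.01 in the pairs, the Slc12a5 ratio in wild type being a bound.

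Some markers of these segments were lower beside the chloride carriers, and others stayed under 2-fold. Of the 7 thick ascending limb markers read, 2 were lower in wild type and 5 in the knockout-labelled pair, and their summed linear signal was 47732, 35109, 44880 and 19049. Umod and Cldn19 stayed under 2-fold in both pairs, and Cldn16 had a log2 ratio of 0.47 in wild type and -1.36 in the knockout-labelled pair. Of the 5 distal convoluted tubule markers read, 1 and 2 were lower, with sums of 41036, 40777, 41843 and 25430. Pvalb and Calb1 were the ones called, while Trpm6, Klk1 and S100g stayed under 2-fold in both pairs. Kcnj1, the potassium channel that recycles potassium for NKCC2, was 1.31-fold and 3.98-fold lower, and Bsnd, the subunit of the basolateral chloride channels, 1.04-fold and 2.29-fold lower. Of 7 WNK pathway genes read, the kinases and partners that switch these carriers on or off, none reached 2-fold in either pair. The part of the marker differences in those of the carriers was not tested.

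Slc8a1, the sodium-calcium exchanger NCX1 through which the distal tubule returns calcium to the blood, had one of the widest differences. Its log2 signals were 10.02, 9.10, 9.95 and 6.83, and it was 1.90-fold lower in wild type and 8.70-fold lower in the knockout-labelled pair. A second probe set, at 7.61, 6.67, 7.27 and 5.92, had log2 ratios of -0.94 and -1.34, while the other 2 stayed under the floor in all arrays. Read as the median over its 4 probe sets, Slc8a1 had a log2 ratio of -0.68 in the knockout-labelled pair. Calb1, the calcium-buffering protein of the same cells, was 1.67-fold and 4.65-fold lower. Slc8a2, a form of the exchanger best known from brain, lay near the floor with 6.32, 6.55, 6.33 and 6.05.

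Among sulfate and dicarboxylate carriers, the dicarboxylate carriers were lower in knockout-labelled IR and nearly equal in the other 3 arrays. Slc13a2, the brush border carrier NaDC1 that takes up citrate and succinate, had 10.43, 10.70, 10.67 and 8.73. It was 1.21-fold higher after IR in wild type and 3.85-fold lower in the knockout-labelled pair. Slc13a3, the basolateral carrier NaDC3, had 11.99, 12.05, 12.24 and 10.56, and was 1.04-fold higher and 3.20-fold lower. Its bright second probe set, which can bind other transcripts, had ratios of 0.15 and -1.44, close to the first.

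Slc13a1, the sulfate carrier NaS1 of the brush border, had 12.29, 13.35, 12.21 and 12.57. It was 2.08-fold higher in wild type, close to the 2-fold line, and 1.28-fold higher in the knockout-labelled pair. Its second probe set gave the reverse order of sizes, with log2 ratios of 0.55 and 1.68 from signals of 9.26, 9.81, 8.31 and 9.98. Both probe sets were higher after IR in both genotypes, but they disagreed on which genotype differed more. Slc26a1, the basolateral sulfate and oxalate exchanger SAT1, had 10.67, 10.40, 10.56 and 9.94 and stayed under 2-fold. The sulfate carriers Slc26a2 and Slc13a4 and the citrate carrier Slc13a5 were 1.52-fold to 1.69-fold lower in the knockout-labelled pair and differed by 1.09-fold to 1.13-fold in wild type.

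Slc26a6, a brush border exchanger of chloride for oxalate or formate, was the only member past 2-fold in opposite directions. The array values were 8.43, 9.63, 8.70 and 7.25. The sham arrays lay between the IR arrays, and the gene was 2.30-fold higher in wild type and 2.75-fold lower in the knockout-labelled pair. It has 1 probe set on the array. With the sham arrays exchanged between the genotypes, the log2 ratios were 0.93, under the 2-fold call, and -1.18.

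Among bicarbonate carriers, Slc4a1 was lower in knockout-labelled IR, while Slc4a4 stayed under 2-fold in both pairs. Slc4a1, the exchanger AE1 of type A intercalated cells and of red blood cells, had 9.22, 8.61, 9.03 and 5.42. It was 1.53-fold lower in wild type and at least 9.88-fold lower in the knockout-labelled pair, where knockout-labelled IR lay under the floor. A second probe set, at 9.40, 8.60, 9.16 and 5.42, gave nearly the same ratios, but probes of its type can bind other transcripts. Slc4a4, the basolateral sodium-bicarbonate carrier NBCe1 of the proximal tubule, had 13.19, 13.37, 13.20 and 12.90. Its 4 probe sets over the floor had log2 ratios from -0.29 to 0.18 in wild type and from -0.60 to 0.35 in the knockout-labelled pair.

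Of the other intercalated cell carriers, 2 stayed under 2-fold in every comparison and Slc26a7 had only a bound. Slc26a4, the chloride-bicarbonate exchanger pendrin of intercalated cells other than type A, had 10.10, 9.99, 9.52 and 9.81. Slc4a9, the carrier AE4 of these cells, had 8.31, 8.52, 8.37 and 8.31. Slc26a7, a chloride exchanger of type A cells, was close to the floor at 5.91, 6.06 and 6.41 and under it, at 3.97, in knockout-labelled IR, a difference of at least 1.61-fold in that pair. With the floor at the 20th percentile it was past 2-fold lower there. Of the 5 intercalated cell markers measured, none was called in wild type and 3 were lower in the knockout-labelled pair: Aqp6 with 9.87, 9.60, 9.60 and 7.05, Rhcg by 3.06-fold, and Atp6v1b1 with 8.98, 8.58, 9.15 and 7.19. The intercalated cell regulator Foxi1, with 8.39, 8.11, 8.60 and 8.50, and the proton pump subunit gene Atp6v0d2, with 9.67, 9.96, 9.61 and 9.62, were not.

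Since Slc4a1 is also a red blood cell gene, red cell markers were read beside it. Of 9 listed, 4 were read on the array, and Hba-a1 was under the floor in every array. Hba-a2, a globin gene, had 6.00, 5.19, 5.83 and 5.32, and was under the floor in both IR arrays. Alas2, the haem synthesis enzyme of red cell precursors, had 7.43, 6.57, 6.59 and 7.58. The summed linear signal of the 3 red cell markers over the floor in 1 or more arrays was 291, 190, 204 and 273. Alas2 was the largest of the 3 in each array, and signals under the floor are part of these sums. Epb42, a red cell membrane skeleton protein gene, had 5.76, 5.88, 5.66 and 5.39, lowest in knockout-labelled IR and under the floor in both knockout-labelled arrays. The part of red cells in the Slc4a1 values was not tested.

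Slc4a2, the widely expressed exchanger AE2, had 8.89, 8.66, 9.11 and 9.70 and stayed under 2-fold after IR in both genotypes. Slc4a3, Slc4a8, Slc4a11 and the adaptor gene Slc4a1ap had log2 ratios between -0.29 and 0.35 in the pairs. Carbonic anhydrases, which supply these carriers with bicarbonate and protons, differed more: Car4 of the brush border was 3.20-fold and 9.16-fold lower, Car14 1.85-fold and 9.39-fold lower and Car12 1.05-fold and 3.43-fold lower. The cytosolic Car2 stayed within 1.16-fold in both pairs, and Car15 was 2.15-fold and 1.42-fold higher.

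Among the sodium-proton exchangers, only Slc9a8 reached 2-fold between IR and sham, and Slc9a2 had ratios of opposite sign. Slc9a3, the brush border exchanger NHE3 that reclaims most of the filtered bicarbonate, had linear signals of 2473, 2465, 2230 and 2054, so its log2 ratios of -0.00 and -0.12 lay within the technical SD. Its scaffold gene Slc9a3r1 had 13.03, 13.07, 13.24 and 12.90. Slc9a8, which encodes the exchanger NHE8 of brush border and endosomes, had 9.91, 7.67, 9.28 and 8.34, with both sham arrays above both IR arrays. It was 4.73-fold lower in wild type and 1.92-fold lower in the knockout-labelled pair, the reverse order of sizes from most of the members. Its second probe set, at 8.07, 7.24, 7.46 and 6.93, had smaller log2 ratios of -0.83 and -0.53, and the median over its probe sets in wild type was -0.65.

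Slc9a2, the exchanger NHE2, had 8.24, 8.73, 8.87 and 8.10, higher after IR in wild type by 1.40-fold and lower in the knockout-labelled pair by 1.70-fold. The scaffold gene Slc9a3r2 had 8.15, 7.51, 8.31 and 8.81, with the opposite signs at 1.56-fold lower and 1.42-fold higher. All 6 of its probe sets were lower in wild type, and in the knockout-labelled pair they ranged from -0.21 to 0.50. Slc9a7, an exchanger of the Golgi, stayed between 6.33 and 6.55.

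**Figure D3:**
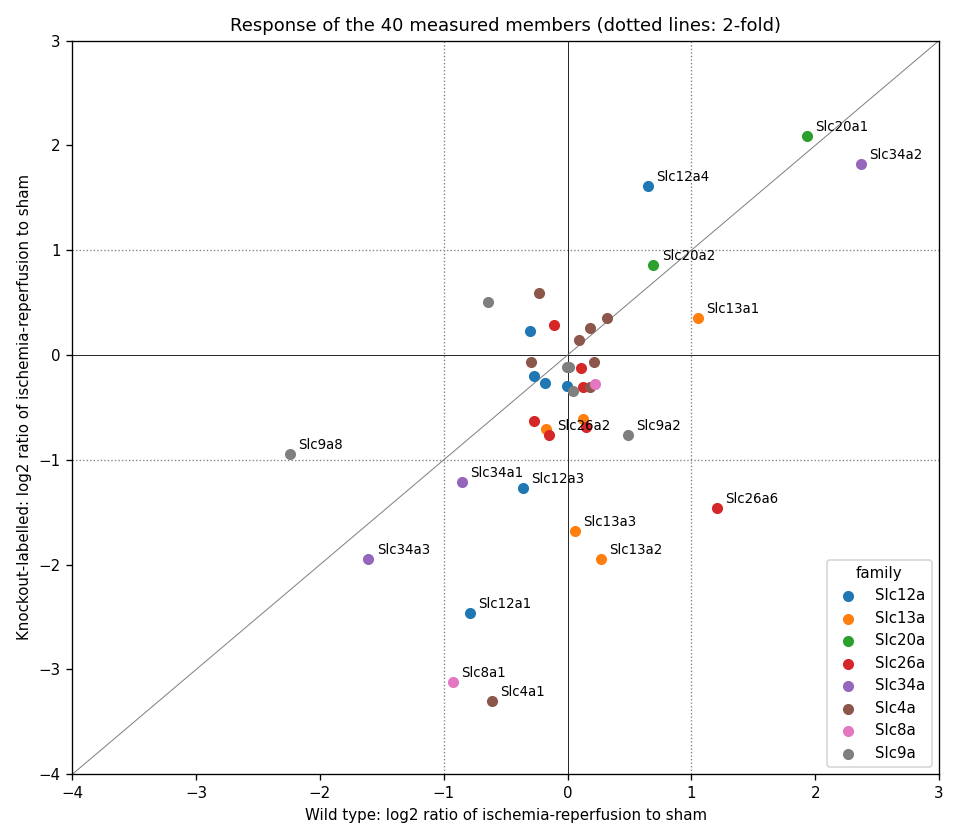
Each point is 1 of the 40 measured members, coloured by family; the horizontal axis is the log2 ratio of IR to sham in wild type and the vertical axis the same ratio in the knockout-labelled pair, with dotted lines at 2-fold and a diagonal of equal ratios. Slc20a1 and Slc34a2 stand at the upper right, Slc34a3 at the lower left, and Slc26a6 alone past 2-fold on both axes with opposite signs.

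The responses of the genotypes share no array and were set side by side. Across the 40 members Pearson's r between them was 0.59 and Spearman's rho 0.44, beside 0.55 and 0.50 over 13323 genes measured in both. Genes are not independent replicates, and the points share their arrays, so these are descriptions. The sign was the same for 23 of the 40 members, beside 8878 of 13323 genes. The ratio was larger in size in the knockout-labelled pair for 32 of 40 members, beside 9140 of 13323 genes. The mean signal of a member had r = -0.11 with its ratio in the knockout-labelled pair and r = -0.00 in wild type.

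Between the sham arrays none of the 40 measured members reached 2-fold in either direction, against a background of 0.186% higher and 0.846% lower among 13474 genes. The ratios ran from -0.63 for Slc9a8 to 0.62 for Slc9a2, and 37 of 40 lay within 0.5. The median was 0.01, beside 0.04 over all measured genes. With shares this small in the background, a count of 0 of 40 is not a result about the members.

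After IR, 3 members were higher and 7 lower in the knockout-labelled array, or 7.5% and 17.5%, against a background of 3.68% higher and 3.99% lower among 13492 genes. The median was -0.22, beside -0.01 over all genes. Lower were Slc4a1 by at least 7.41-fold, Slc26a6 by 5.22-fold, Slc8a1 by 4.82-fold, Slc13a2 by 3.92-fold, Slc12a1 by 3.69-fold, Slc13a3 by 2.80-fold and Slc12a3 by 2.02-fold. Higher were Slc9a3r2 by 2.46-fold, Slc4a2 by 2.05-fold and Slc12a4 by 2.05-fold. Slc12a3, Slc4a2 and Slc12a4 lay close to the 2-fold line and each missed it under 1 or more other settings. With plain _at probe sets Slc9a3r2 was at 0.68, and with the median over probe sets only 3 members stayed lower at 2-fold. Read from the probe sets used, the 5 phosphate carriers stayed under 2-fold between the IR arrays, from -0.66 for Slc34a3 to 0.34 for Slc20a2. The dimmer probe set of Slc20a1 had a log2 ratio of 1.45 there. The 5 Slc13a genes were all lower in the knockout-labelled IR array, from -1.97 to -0.63.

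**Figure D4:**
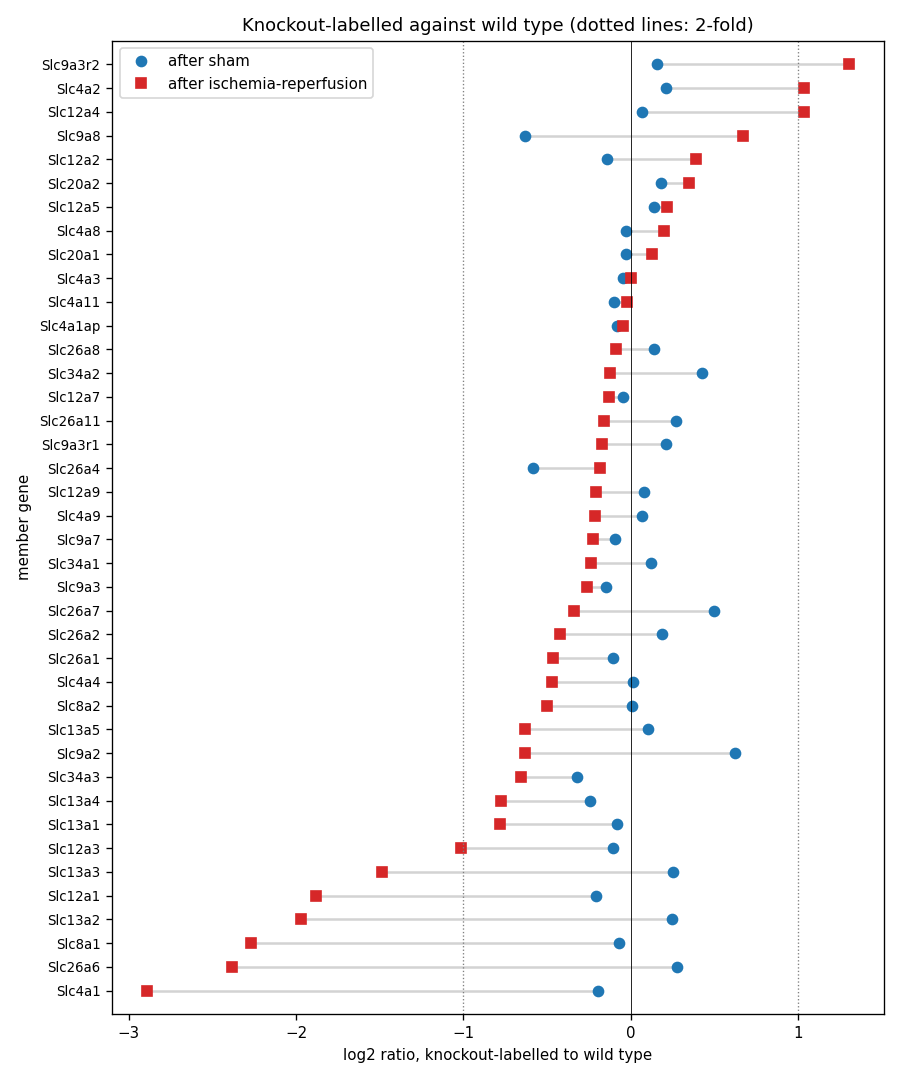
For each of the 40 measured members (vertical axis) the log2 ratio of knockout-labelled to wild type (horizontal axis) is shown after sham (circles) and after IR (squares), with a line joining them and dotted lines at 2-fold. All circles lie within 2-fold, and squares reach -2.89 for Slc4a1, a bound, and 1.30 for Slc9a3r2.

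The difference of the responses, the log2 ratio of IR to sham in the knockout-labelled pair minus that in wild type, uses all 4 arrays and was not tested. It was 1 or more for 2 members and -1 or less for 7, or 5% and 17.5%, against a background of 4.75% and 4.77% among 13808 genes. The 2 were Slc9a8 at 1.30 and Slc9a3r2 at 1.15. The 7 were Slc4a1 at -2.69, a bound, Slc26a6 at -2.66, Slc13a2 at -2.21, Slc8a1 at -2.20, Slc13a3 at -1.73, Slc12a1 at -1.68 and Slc9a2 at -1.25. The phosphate carriers lay between -0.55 and 0.16 by the probe sets used, while the dimmer probe set of Slc20a1 gave 1.45. With plain _at probe sets only, 3 members were at 1 or more.

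Probe sets of the same gene give a check on these readings. In 17 member genes 2 or more probe sets reached the floor, and all probe sets of a gene had the same sign in 13 of the 17 in wild type and in 13 of the 17 in the knockout-labelled pair. Slc34a1, Slc34a2, Slc34a3, Slc26a6, Slc13a2 and Slc12a4 have a single probe set each, so no such check exists for them. For Slc12a3 the other probe set stayed under the floor.

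**Figure D5:**
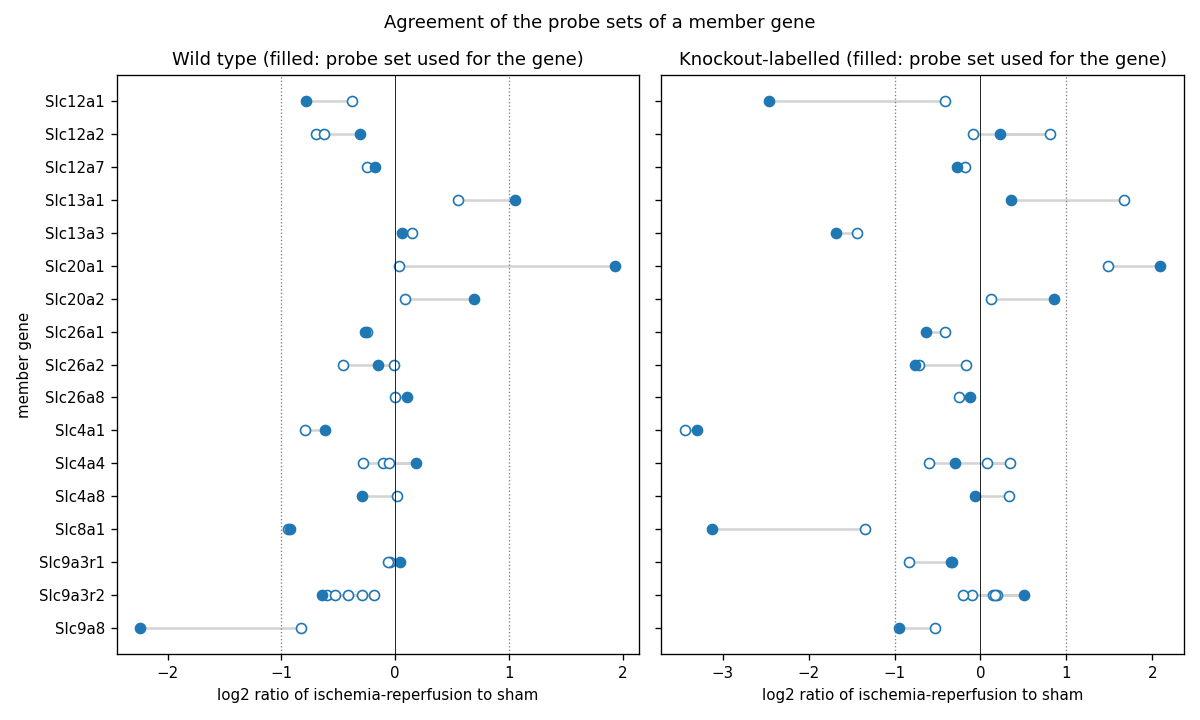
For the 17 member genes with 2 or more probe sets over the floor (vertical axis), each point is the log2 ratio of IR to sham of 1 probe set, in wild type (left) and in the knockout-labelled pair (right); filled points mark the probe set used and dotted lines 2-fold. Slc13a3 and Slc4a1 agree closely, while Slc12a1, Slc20a1 and Slc8a1 differ in size between probe sets.

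Partner genes, listed for their part in tubular ion transport but with earlier results of these data known, were read beside the members. Of 44 measured, 3 were higher and 2 lower at 2-fold in wild type, and 2 were higher and 9 lower in the knockout-labelled pair. The background over all measured genes was 2.06% higher and 2.18% lower in wild type, and 6.06% and 6.89% in the knockout-labelled pair. Counts of cell markers called between IR and sham have the same background. The chloride channel gene Cftr was higher in both, by 3.60-fold and 5.65-fold. Sgk1, the kinase that raises sodium uptake, was 2.16-fold lower in wild type and 1.46-fold higher in the knockout-labelled pair. The sodium channel subunit gene Scnn1g was 1.21-fold higher and 2.21-fold lower. The sodium pump genes Atp1b1 and Fxyd2 stayed within 1.28-fold in both pairs.

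Markers of other cells also differed between the arrays. Of the 13 proximal tubule markers read, 3 were lower in wild type and 9 in the knockout-labelled pair, and their summed linear signal was 117128, 84662, 117764 and 43181. All 8 injured tubule markers read were higher in the knockout-labelled pair and 5 of 8 in wild type, with sums of 5990, 36522, 4193 and 63057. Between the sham arrays, 2 of these 8 were lower at 2-fold in the knockout-labelled array and 0 were higher. The log2 ratios of these 2 were -2.52 for Havcr1 and -2.18 for Krt18, so their sham baselines were uneven. The part of this unevenness in the 2 responses was not tested. Of the 8 principal cell markers read, 1 was lower in wild type and 3 in the knockout-labelled pair. The 5 fat markers had sums of 6974, 617, 1453 and 9546, with Adipoq under the floor in wild-type IR and knockout-labelled sham. The 6 urothelium markers had sums of 1377, 797, 632 and 976, the 4 podocyte markers 1328, 392, 1362 and 2796, and the 6 endothelium markers 2372, 752, 2112 and 1938. The 4 neutrophil markers had 218, 378, 210 and 2161. Only 2 of these 4 were called in the knockout-labelled pair. Their log2 ratios there were 4.31, a bound, for S100a8 and 3.85 for S100a9. The ratio was 0.30 for Csf3r and 0.42, a bound, for Mmp8, so the rise in the sum does not describe all 4 markers. Cxcr2, also listed, lay under the floor throughout. The 7 macrophage markers had 3475, 2051, 3551 and 3089. The macrophage markers split in direction: 2 were higher and 3 lower in wild type, and 2 higher and 2 lower in the knockout-labelled pair. Cd68 and Cd14 were higher in both pairs, Csf1r and C1qb lower in both, and C1qa lower in wild type. The part of these cell markers in the member values was not tested. With the sham arrays exchanged, 3 members were higher and 2 lower in wild type, and 4 higher and 10 lower in the knockout-labelled pair. The shares over all genes were not recomputed for that exchange.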

How the data were processed

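Kidney RNA of 4 groups was measured on 1 Affymetrix array each. For 45037 probe sets, signals were deposited on what the values (2.51 to 14.97, column medians from 6.28 to 6.33) show to be a log2 scale. MAS5 is named in the submitters' processing notes without version, scaling or filter, so the scaling stays unknown; no centring per probe set is seen.

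GEO's platform annotation pairs 34945 probe sets with a single symbol and 932 with several, and does not list 9160. A member probe set with several symbols was left out (1). All 50 member symbols matched a RefSeq gene table of GRCm38.p6 by Entrez identifier. A gene was read from the probe set with the highest mean, _x_at types last. Signals below the 40th percentile, 5.72 or 52.8 on the linear scale, were set to that floor, and where 1 side was at the floor the fold is a bound. Comparisons are log2 ratios, called at 2-fold; the calculation was tested on simulated data. Values in all arrays are given for members past 2-fold and for members of known place in the nephron, and partner genes are named at 2-fold, besides some named after their values were seen. The members and lists were chosen with earlier results of these data known. Promoter windows and motifs came from RefSeq. Tools were Python 3.11.15, pandas 2.3.3, numpy 2.4.6 and matplotlib 3.10.9.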

Additional observations from a re-analysis of the deposited data

Results flagged for a closer look

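The response to IR had opposite signs in the genotypes, past the technical SD of all genes on both sides, for 4 members. The same count over all genes was not made, so these 4 have no background beside them and are not a result about the members. The difference was not tested, and each side is 1 array against 1. Slc26a6 had a log2 ratio of 1.20 in wild type and -1.46 in the knockout-labelled pair. Slc13a2 had 0.27 and -1.94, of which the wild-type value was 0.03 with the other sham array as control. That 0.27 was also under the SD of 0.28 among member genes alone. Slc9a2 had 0.49 and -0.76. Slc9a3r2 had -0.64 and 0.50, and its probe sets did not share a sign in the knockout-labelled pair.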

How the results depend on the processing

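Counts of members were recomputed under 9 planned settings and 1 chosen after seeing the data, every member probe set counted on its own. The shares of all genes called were not recomputed, so the counts below have no background beside them. Values of the 26 named members were recomputed under 8 of the planned settings, and no called value changed sign there. Of these 949 values, 869 moved by less than the SD between probe sets over all genes. The other 80 moved by more. Some settings could move few values or none, so the 869 is not a measure of stability. Keeping only genes over the floor in all arrays compared leaves each ratio as it was. A lower floor alters only ratios with a signal under the floor, and moved 3 of 130 values. Centring columns on their median moved 0 of 130. The median over the probe sets of a gene moved 40 of 129. That median left 2 members higher and 1 lower in wild type, where Slc20a1 had a log2 ratio of 0.04, Slc13a1 0.80 and Slc9a8 -0.65, and 3 lower between the IR arrays, where Slc8a1 had -0.28, Slc12a1 -0.84, Slc12a3 -0.55 and Slc13a3 -0.90. It averages in probe sets under the floor. Plain _at probe sets alone gave 2 members higher in wild type, with Slc20a1 at 0.04 and Slc13a1 at 0.55. A pseudocount in place of the floor gave 1 member higher between the IR arrays and 1 with a difference of responses of 1 or more, as did leaving out the scaffold and adaptor genes for the latter. Counting every probe set gave 5 higher in the knockout-labelled pair and 5 with a difference of responses of 1 or more. Quantile normalization left Slc12a4 at 0.99 between the IR arrays, and the pseudocount left Slc12a3 at -0.99, Slc12a4 at 0.90 and Slc4a2 at 0.95. Scaling moved the median of all genes by at most 0.06 in size. No array could be left out, since each group has 1. For the same reason no paired analysis was possible, and the labels carry no replicate numbers.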
